A study of Mus musculus with 4 samples.

Results

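The TREM receptors (triggering receptors expressed on myeloid cells) and DAP12, the adaptor encoded by Tyrobp, were compared between a pair of pancreas-draining lymph nodes of NOD mice, a strain prone to autoimmune diabetes. The 7 genes taken were Trem1, Trem2, Trem3, Treml1, Treml2, Treml4 and Tyrobp, found as array probes whose transcript accession maps to these symbols. Of these, 6 had a probe, out of 17178 genes with a matched probe on the array, and 5 passed the filter on dim probes, out of 13400 named genes that did. Treml2 had no matched probe and was not analysed here. The genes were chosen by their readout, since Trem2 and Treml4 were known from the same arrays to lie on opposite sides, so their own ratios are given below as a description and without a test.

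Each of 4 female NOD mice, 12 weeks old and with no treatment recorded in the labels, gave a gastric lymph node, which is the left pancreatic node, and a pancreatico-duodenal lymph node, the right one. Both RNAs of a mouse were hybridised to 1 two-colour array, the gastric sample carrying Cy5 (red) and the pancreatico-duodenal sample Cy3 (green). All animals were NOD and no other strain was analysed here, so every value is a difference between nodes of one mouse and not a difference from a healthy animal. The dyes were not exchanged, so node and dye cannot be told apart for any gene. Ratios are given as log2 of the gastric over the pancreatico-duodenal node, and a level is the normalized log2 intensity of a probe in one channel.

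Marker genes of lymph nodes were looked at beside the tissue label. All 9 B cell, all 10 T cell and all 9 lymph node stroma markers passed the filter on dim probes. Of these, Prox1 was well above background on 3 of 4 arrays in the gastric channel and on 1 of 4 in the pancreatico-duodenal channel. All 10 exocrine pancreas markers with a probe and 8 of 9 adipocyte markers passed too, so passing does not tell a lymph node from other tissue. The share of probes well above background was 67.1% to 71.4% in the gastric channel and 59.6% to 62.6% in the pancreatico-duodenal channel. In mouse 3 the 10 exocrine pancreas markers had a median log2 ratio of -4.75, against -0.28, 0.22 and 0.85 in mice 1, 2 and 4. Without mouse 3 the mean log2 ratios of Trem2, Treml4 and Tyrobp, described below, were 0.64, -0.76 and -0.32. The 8 tested adipocyte markers had medians of 1.55, -1.76, 0.27 and -1.58 in mice 1 to 4, and their part in the results was not tested.

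TREM receptors are single-pass surface proteins of the immunoglobulin superfamily. TREM-1, TREM-2 and TREM-3 have short tails and pair through a charged residue in the membrane with DAP12, whose ITAM (immunoreceptor tyrosine-based activation motif) recruits the kinase Syk. TREM-1 amplifies inflammation in neutrophils and monocytes. TREM-2 binds lipids and apolipoproteins on macrophages, microglia and osteoclasts and favours phagocytosis and survival. In mice, TREML4 is carried by CD8a+ type dendritic cells, some macrophages and patrolling monocytes and binds dying cells, and TREML1 is stored in the granules of platelets and megakaryocytes.

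Trem2 and Treml4 lie in one gene cluster on chromosome 17, and the windows around their starts are shown because these neighbours read on opposite sides. Each window runs from 250 bases before to 50 bases after the start, from RefSeq on GRCm38.p6, plus strand, and capitals mark the hexamer GAGGAA or its reverse complement. This is a core sequence bound by PU.1, the transcription factor of myeloid cells. Trem2 is at chr17:48346151-48346450 and Treml4 at chr17:48264045-48264344.
Trem2: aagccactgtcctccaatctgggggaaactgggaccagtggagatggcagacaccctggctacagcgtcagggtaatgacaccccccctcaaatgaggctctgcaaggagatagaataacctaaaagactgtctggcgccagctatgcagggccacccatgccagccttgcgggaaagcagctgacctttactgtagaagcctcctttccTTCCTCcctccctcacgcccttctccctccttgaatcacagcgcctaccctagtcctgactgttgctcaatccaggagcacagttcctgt
Treml4: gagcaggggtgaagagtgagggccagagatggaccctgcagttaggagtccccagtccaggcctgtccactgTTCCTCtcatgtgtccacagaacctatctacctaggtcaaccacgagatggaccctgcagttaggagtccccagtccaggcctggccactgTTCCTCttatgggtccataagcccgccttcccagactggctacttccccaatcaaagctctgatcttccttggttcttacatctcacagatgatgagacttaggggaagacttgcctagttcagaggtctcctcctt
The Trem2 window held 1 match, at base 211 of the window. The Treml4 window held 2, at bases 73 and 164, each just after a copy of an exact repeat of 40 bases (bases 26 to 65 and 117 to 156). A window was found for 4 of the 7 genes. Of the other windows, Trem1 held 1 match and Treml1 held none. The hexamer occurred in 28.3% of 32851 promoter windows of this length, and such a match is a description of letters and not of binding.

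Trem2, the lipid-sensing receptor gene, read higher in the gastric node of every mouse. The brighter of its 2 probes had gastric levels of 7.89, 8.02, 8.16 and 8.46 in mice 1 to 4, against pancreatico-duodenal levels of 7.64, 7.37, 7.62 and 7.45. All gastric values lay above all pancreatico-duodenal values, and the gap between the groups was 0.25. The share of all features with such a separation is not given, so nothing is read from it, here or for the genes below. The log2 ratios were 0.25, 0.66, 0.54 and 1.01, with a mean of 0.62 ± 0.32 (SD, n = 4), or 1.53-fold higher. Mouse 1 was lowest and mouse 4 highest, so the size varied among mice while the side was the same.

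The second Trem2 probe gave a smaller difference on the same side. Its gastric levels were 6.75, 6.87, 6.85 and 7.09 in mice 1 to 4, against pancreatico-duodenal levels of 6.56, 6.49, 6.58 and 6.59. These groups did not overlap either. The log2 ratios were 0.19, 0.38, 0.27 and 0.49 (0.33 ± 0.13, SD, n = 4), which is 54.3% of the mean of the first probe, and the mice fell in the same order on both probes. The second probe was only 2.52 to 3.79 times its local background in the gastric channel, whereas the first was 7.82 to 11.3 times.

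Treml4, the receptor gene for dying cells, lay on the other side in all 4 mice. Gastric levels were 10.55, 10.24, 10.05 and 9.85 in mice 1 to 4, against pancreatico-duodenal levels of 11.17, 10.83, 11.03 and 10.92. Every gastric value was below every pancreatico-duodenal value, by at least 0.28. The log2 ratios were -0.62, -0.59, -0.98 and -1.07 (mean -0.82 ± 0.25, SD, n = 4), a level 1.76-fold lower in the gastric node. Most of the spread among mice was on the gastric side, where the SD of the levels was 0.30, against 0.14 on the pancreatico-duodenal side.

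Tyrobp, the shared adaptor gene, read lower in the gastric node by less. Gastric levels were 12.27, 12.11, 12.01 and 11.94 in mice 1 to 4, against pancreatico-duodenal levels of 12.49, 12.45, 12.48 and 12.33. The groups were apart by only 0.06. The log2 ratios were -0.22, -0.34, -0.47 and -0.39 (mean -0.36 ± 0.11, SD, n = 4), or 1.28-fold lower. This direction depended on the normalization, since Tyrobp read 0.24 with median centring in place of the intensity-dependent loess. In whole nodes, fewer cells of a type and less RNA per cell cannot be told apart, which holds for each gene here.

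**Figure D1:**
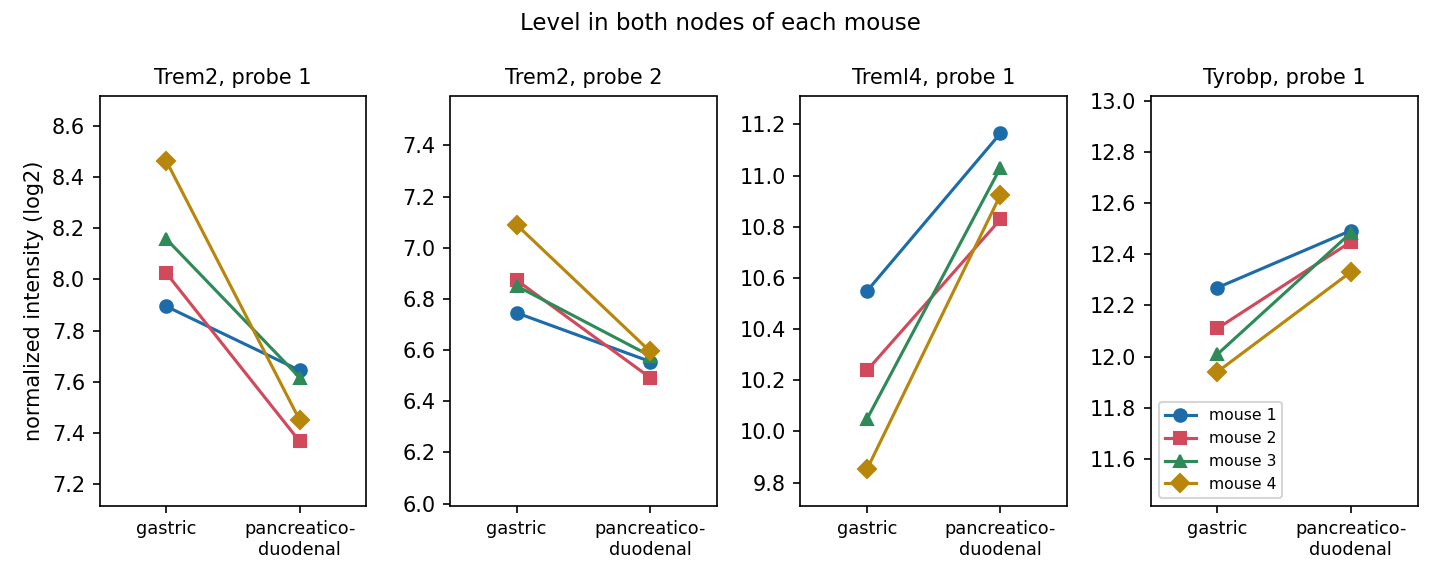
Normalized log2 intensity of both Trem2 probes, Treml4 and Tyrobp in the gastric and pancreatico-duodenal node, with 1 line per mouse and a y axis of the same span in each panel. Both Trem2 probes are higher and Treml4 and Tyrobp lower in the gastric node in 4 of 4 mice, Tyrobp with the smallest gap (0.06) and with a turn of side under median centring.

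The opposite sides of the genes were seen within each array. Features of like intensity had median log2 ratios of 0.04 around Trem2, 0.03 around Treml4 and 0.01 around Tyrobp. Loess brings such medians near 0 at every intensity, so they are no check on dye or intensity effects. Trem2 minus Treml4, as a difference of their log2 ratios, was 0.87, 1.25, 1.52 and 2.08 in mice 1 to 4. Trem2 minus Tyrobp was 0.47, 1.00, 1.02 and 1.40, so the receptor gene and its adaptor gene lay apart in all 4 mice. Treml4 minus Tyrobp was -0.39, -0.25, -0.51 and -0.68. Mouse 1 had the smallest Trem2 gap to both genes and mouse 4 the largest.

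The remaining receptor genes had smaller ratios or were near the detection limit. For Trem1, the amplifier of inflammation, the brighter probe had log2 ratios of -0.13, -0.05, -0.06 and 0.00 in mice 1 to 4 (mean -0.06 ± 0.06, SD, n = 4). Its levels were 6.54, 6.58, 6.56 and 6.59 in the gastric node, against 6.68, 6.63, 6.62 and 6.59 in the pancreatico-duodenal node, and the groups overlapped through the values of mouse 4. The second Trem1 probe read -0.05, -0.28, -0.10 and 0.02, and it was well above background on 3 of 4 arrays in the gastric channel and on 1 of 4 in the pancreatico-duodenal channel. The mean of the brighter probe was -0.15 with the scanner software's processed signals, with the authors' deposited table and with median centring, and it was past the threshold only with median centring.

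Trem3, a DAP12-coupled receptor gene of mouse macrophages, was well above background on 0 of 4 arrays in the gastric channel and on 1 of 4 in the other, so no fold is given. Its readings were 6.19, 6.14, 6.09 and 6.18 in the gastric node of mice 1 to 4, against 6.35, 6.40, 6.20 and 6.13 in the pancreatico-duodenal node, and they overlapped. Treml1, the platelet receptor gene, had gastric levels of 6.82, 6.94, 6.89 and 7.01 in mice 1 to 4, against pancreatico-duodenal levels of 7.24, 7.04, 6.99 and 7.29. The groups overlapped at a single pair of values, 7.01 in the gastric node of mouse 4 and 6.99 in the pancreatico-duodenal node of mouse 3. The log2 ratios were -0.41, -0.10, -0.11 and -0.27, with a mean of -0.22 ± 0.15 (SD, n = 4). That mean was -0.47 with the scanner software's processed signals and with the authors' deposited table, and it was not past the threshold in either.

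**Figure D2:**
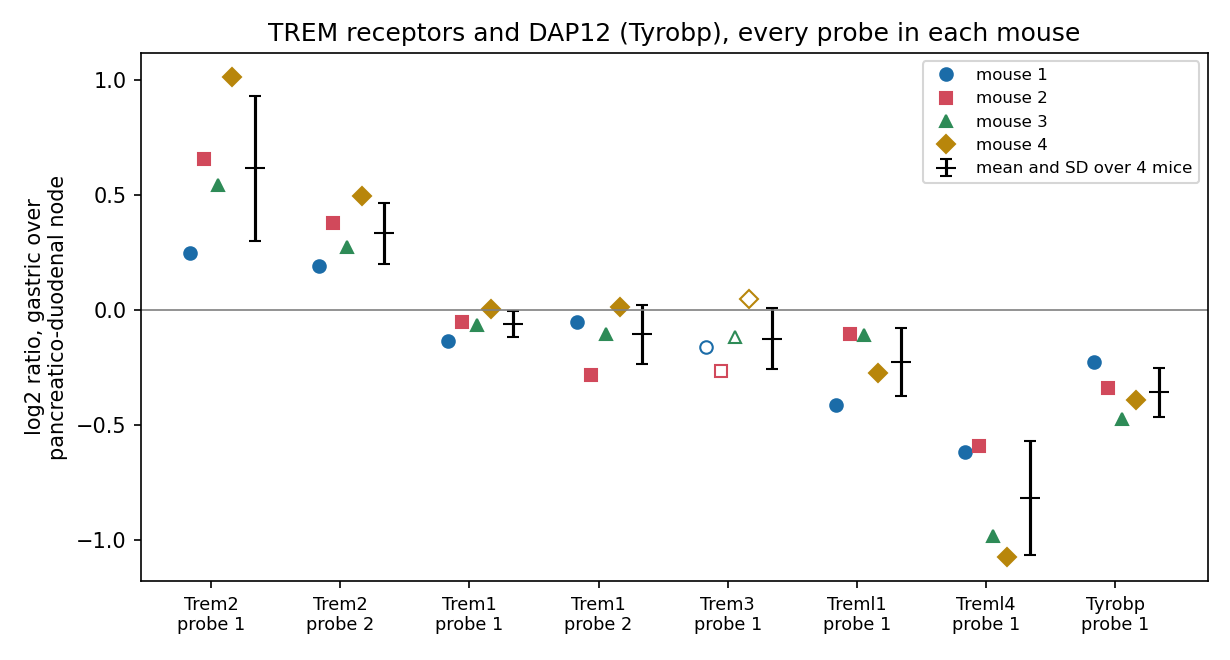
Log2 ratio of the gastric over the pancreatico-duodenal node for all 8 probes of the family, with 1 point per mouse and the mean and SD over 4 mice as bars; open points mark Trem3, which did not pass the filter on dim probes. Both Trem2 probes are above 0 in 4 of 4 mice. Treml4, Treml1 and Tyrobp are below 0 in 4 of 4 (the Tyrobp mean is 0.24 with median centring). The Trem1 and Trem3 probes lie around or just below 0.

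Over the whole table of 21320 features (named genes and unnamed transcripts), a mean log2 ratio was called when its adjusted p was under 0.05 in limma. This held for 7.54% of features, 3.09% being higher and 4.45% lower in the gastric node. Of the 5 tested genes of the family, 3 were on the called side of the threshold, Trem2 as higher and Treml4 and Tyrobp as lower. Since the genes were chosen on this contrast, nothing is read from that count. By mean log2 ratio Trem2 was the 38th from the top of the 21320 features, Treml4 the 104th from the bottom and Tyrobp the 866th from the bottom. None of the 3 stayed past the threshold without mouse 2, without mouse 3 or without mouse 4. Hardly any feature was called then. The features called lower numbered 0 without mouse 2, 3 without mouse 3 and 1 without mouse 4, and none was called higher. The loss of a call in these settings is thus not particular to these genes, nor to the lists below. The mean ratios of the 3 genes without 1 mouse ran from 0.48 to 0.74 for Trem2, from -0.89 to -0.73 for Treml4 and from -0.40 to -0.32 for Tyrobp.

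In the gene cluster, the order in RefSeq was Trem1, Trem3, Treml4, Treml2, B430306N03Rik (also called Treml6), Trem2 and Treml1. With loess, Trem2 was the only one of the measured genes in this stretch with a mean above 0. B430306N03Rik, which lies between Treml4 and Trem2, had log2 ratios of 0.05, -0.23, -0.17 and -0.22 in mice 1 to 4 (mean -0.14 ± 0.13, SD, n = 4; not called). Gm52308, Gm18679 and Gm52307, between Trem1 and Trem3, had no matched probe. Tyrobp lies elsewhere, on chromosome 7.

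The pathway around the receptors was described on lists for ligands and partners, other receptors, adaptors, signalling proteins and downstream programmes, 100 genes in all. Of the 77 that could be tested, 12 were lower in the gastric node and 0 higher in limma (22 and 8 at an unadjusted p under 0.05). The 12 make up 15.6% of the genes tested, against 4.45% of all features. The median log2 ratio of the 77 was -0.05, against 0.03 over all features. Without mouse 1 the counts were 18 lower and 4 higher. Without mouse 2, mouse 3 or mouse 4 none was called (22, 20 and 19 lower at an unadjusted p under 0.05). Hardly any of all features was called in these settings either. With median centring 2 were lower and 50 higher. Of all 21320 features, 2066 were lower and 12821 higher in that setting, so the 50 are not read as a result about the pathway.

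Among ligands, sheddases and partners, 1 of 7 tested genes was lower. This was Ms4a6d, of a membrane protein family linked in humans to soluble TREM-2, at -0.43, -0.46, -0.96 and -0.38 in mice 1 to 4 (mean -0.56 ± 0.27, SD, n = 4; limma adjusted p = 0.0421). Mouse 3 stood apart there. Chosen after their values were seen, Apoe, which encodes a TREM-2 ligand, was at -0.07 ± 0.27, and Pglyrp1, which encodes a TREM-1 ligand, at 0.16 ± 0.07 (SD, n = 4), and neither was called.

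Of 9 tested receptors that couple to DAP12 or signal through it, 1 was lower. This was Csf1r, the receptor gene for macrophage colony-stimulating factor, at -0.43 ± 0.17 (SD, n = 4; limma adjusted p = 0.0376). Its 2 further probes read -0.70 and -0.19, and the sign of the main probe turned with median centring (0.19). Clec5a, a DAP12-coupled lectin gene chosen after its values were seen, was at 0.44 ± 0.29 and was not called (limma adjusted p = 0.0683).

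The other ITAM and related membrane adaptors did not pass the threshold. Fcer1g, the common Fc receptor gamma chain, had log2 ratios of -0.14, -0.07, -0.31 and -0.21 in mice 1 to 4 (mean -0.18 ± 0.10, SD, n = 4), and Cd247, the T cell receptor zeta chain, had a mean of 0.18 ± 0.17, with a second probe at -0.11. Hcst, which encodes DAP10 and completes the list, was at 0.23 ± 0.23. Fcer1g thus lay on the side of Tyrobp in 4 of 4 mice, though with median centring it was called higher at 0.39.

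Of 32 tested signalling genes below DAP12, 2 were lower, and the list median of 0.04 was close to that of all features, 0.03. Dok1, which encodes an inhibitory docking protein, was at -0.47, -0.35, -0.21 and -0.25 in mice 1 to 4 (mean -0.32 ± 0.12, SD, n = 4; limma adjusted p = 0.0395). Its further probe read -0.49, and the sign of the main probe turned with median centring (0.25).

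Genes of lipid-handling macrophages, a programme in which TREM-2 takes part, were lower in 7 of 17 cases (41.2%), against 4.45% of all features. The list median was -0.34, and 16 of the 17 means were below 0, against 41.9% of all features. Ctsd, which encodes the lysosomal protease cathepsin D, was at -0.68, -0.86, -0.74 and -0.71 in mice 1 to 4 (mean -0.75 ± 0.08, SD, n = 4; limma adjusted p = 0.0157). Plin2, which encodes a lipid droplet coat protein, was at -0.70 ± 0.33, Axl, a receptor kinase gene for clearing dying cells, at -0.69 ± 0.22 and Gpnmb, a lysosomal glycoprotein gene, at -0.60 ± 0.28. The other called members, named to complete the count, were Itgax, Lipa and Cd63, from -0.38 to -0.34. Without mouse 2, 3 or 4 none of the list was called, with medians between -0.36 and -0.27, and without mouse 1 the count was 12. The direction of the list turned with median centring, where 7 were higher and 1 lower and the list median was 0.23, though 11 of the 17 were below the median of all features there. Among those named, Ctsd, Plin2 and Gpnmb lost the call there and Axl kept it, all still below 0.

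Among inflammatory genes that TREM-1 amplifies, 1 of 9 tested genes was lower, the lipopolysaccharide co-receptor gene Cd14 at -0.38 ± 0.12 (SD, n = 4; limma adjusted p = 0.0321). The list median was -0.10. With median centring Cd14 was at 0.09.

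**Figure D3:**
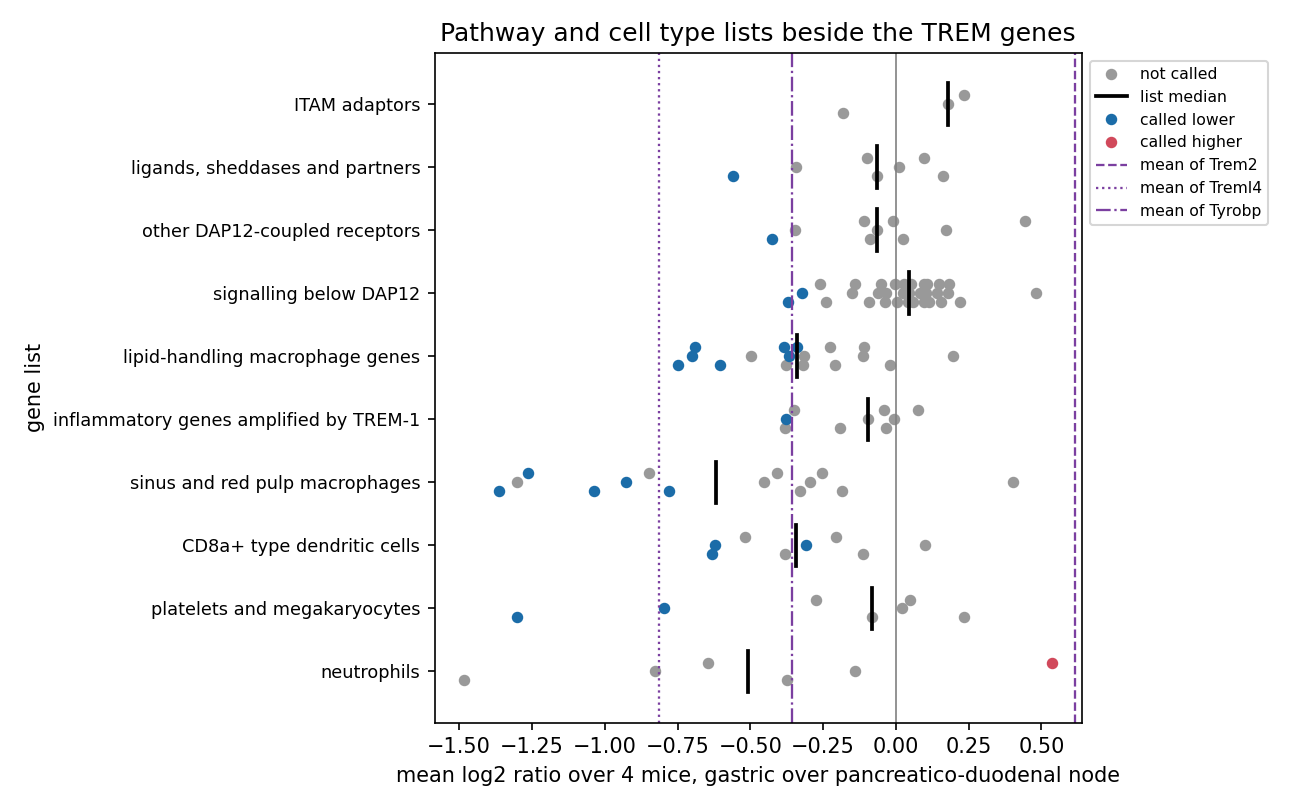
Mean log2 ratio over 4 mice, gastric over pancreatico-duodenal node, of each tested gene of the 6 pathway lists and of 4 cell type lists, coloured by its call, with the list median as a black bar and the means of Trem2, Treml4 and Tyrobp as vertical lines. The Trem2 line, of a gene chosen for its ratio, lies to the right of every gene drawn. The lipid-handling and macrophage medians lie at -0.34 and -0.62.

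Markers of the cell types that carry these receptors are given beside them. Over all features, 4.45% were called lower and 3.09% higher in the gastric node, for comparison with the counts here and below. Of 14 markers of sinus and red pulp macrophages, all tested, 5 were lower in the gastric node, and the median log2 ratio was -0.62. Their summed intensity was 49400 to 77800 in the gastric node and 85500 to 119000 in the pancreatico-duodenal node, with no overlap. Without mouse 1 the count was 8, and without mouse 2, 3 or 4 none was called, with medians between -0.68 and -0.51. With median centring 4 were lower and 2 higher and the list median was -0.06. Of the 14 markers, 12 lay below the median of all features there, which was 0.32. With loess, the 4 called markers with the largest ratios were Adgre1 (-1.36 ± 0.71, further probe -0.54), Cd163 (-1.26 ± 0.30), C1qb (-1.04 ± 0.26) and C1qa (-0.93 ± 0.22, SD, n = 4 each). Of 5 tested osteoclast markers, a cell type known for TREM-2, 2 were lower, Ocstamp (-0.61 ± 0.10, further probe -0.15) and Acp5 (-0.35 ± 0.08, SD, n = 4 each), and Acp5 turned sign with median centring. Neither was called without mouse 2, 3 or 4. Over the 31 tested macrophage and lipid-handling genes, 29 had means below 0 with loess, against 41.9% of all features. Of the 31, none reached the mean of Trem2, and 6 lay at or below the mean of Treml4. Trem2 and Treml4 were chosen for their ratios, so their place beside these genes is a description. The nearest to Trem2 was Timd4, a receptor gene for dying cells picked with its values known, at 0.40 ± 0.37 (SD, n = 4, not called). The part of macrophage content in the Trem2, Treml4 and Tyrobp ratios was not tested.

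For Treml4, the lists of its other known carriers are given beside it. Of 8 tested markers of CD8a+ type dendritic cells, 3 were lower (37.5%, against 4.45% of all features), and the list median was -0.34. These were Itgae, the gene of the integrin CD103 (-0.63 ± 0.14), Naaa, a lysosomal amidase gene (-0.62 ± 0.28), and Batf3, a transcription factor these cells need (-0.31 ± 0.10, SD, n = 4 each). With median centring the list had 3 higher, none lower and a median of 0.09, Naaa and Batf3 turned sign and Itgae lost its call at -0.10. Over all features that setting gave a median of 0.32, with 12821 of 21320 called higher. Of the 8 markers, 6 lay below that median. Their summed intensity was 38300 to 46100 in the gastric node and 47600 to 51000 in the pancreatico-duodenal node. Patrolling monocyte markers had 2 of 8 lower, Csf1r and Cd300e (-0.24 ± 0.07), and their sums overlapped, with 24900 to 28800 in the gastric node and 24200 to 29000 in the pancreatico-duodenal node. With median centring 6 of them were higher, none lower, and their median was 0.26. Of these 8 markers, 5 lay below the median of all features there. Without mouse 2, 3 or 4 neither list had a called gene. Treml4 was below the list medians of both cell types in each mouse, and below the macrophage median in mice 1, 2 and 4 but not in mouse 3 (Treml4 -0.98, macrophage median -1.14). As Treml4 was chosen for its ratio, this placing is a description. The part of these cells in the Treml4 ratio was not tested.

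For Treml1, 2 of 7 tested platelet and megakaryocyte markers were lower (28.6%, against 4.45% of all features). They were the integrin gene Itga2b (-1.30 ± 0.36, SD, n = 4) and the receptor gene Clec1b (-0.80 ± 0.13), while the list median was -0.08. The sums overlapped, with 3800 to 4330 in the gastric node and 4060 to 4450 in the pancreatico-duodenal node. For Trem1 and Trem3, 6 neutrophil markers could be tested, and 1 of them, the chemokine receptor gene Cxcr2, was higher (0.54 ± 0.21, SD, n = 4; further probe 0.15). The other 5 had means below 0, and the list median was -0.51, or -0.19 without mouse 2. The sums overlapped, with 1100 to 2110 in the gastric node and 1190 to 11700 in the pancreatico-duodenal node, and the list median per mouse ran from -1.22 in mouse 2 to -0.0044 in mouse 1. Without mouse 2, 3 or 4 none of these platelet, neutrophil or natural killer genes was called. The part of platelets and neutrophils in these ratios was not tested.

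Natural killer cells also carry DAP12. Of their 8 markers, 2 were higher, the receptor genes Klra7 (0.71 ± 0.36) and Klrd1 (0.29 ± 0.11, SD, n = 4 each), and the list median was 0.03, as over all features. Of all features, 3.09% were called higher. The means of 3 of the 8 natural killer markers were below 0. Their summed intensity was 4390 to 5390 in the gastric node and 3780 to 4290 in the pancreatico-duodenal node, a sum that bright members weigh most in. The part of these cells in the Tyrobp ratio was not tested.

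The genes with the most similar log2 ratios over the 4 arrays were found by root mean square distance. For Tyrobp these were Slc7a7, Lrpap1, Gnai1, Mill2 and Cd63, at distances of 0.02 to 0.04. Treml4 was closest to Reln, Fmo2, Mfap2, Vit and Svep1, at 0.08 to 0.11, and Reln read -0.47, -0.54, -0.97 and -1.15 in mice 1 to 4. Trem2, the 38th feature from the top by mean log2 ratio, had no such close match. Lars2, Nsg2, Sh2d1a, Rps18 and Rpl12 came nearest, at 0.16 to 0.25, and Lars2 read 0.49, 0.56, 0.41 and 0.87. The mean log2 intensities of these 5 genes were 17.85, 11.68, 10.58, 17.11 and 17.00, against 7.83 for Trem2. With 4 arrays this likeness is a description only.

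Trem2, Treml4 and Tyrobp were followed through 17 other processings. Trem2 was past the threshold in 11 of them, Treml4 in 14 and Tyrobp, on either side of 0, in 12. As a description of these arrays, the mean of Trem2 ran from 0.48 to 0.89 and that of Treml4 from -0.89 to -0.29. Tyrobp ran from -0.40 to 0.24, and its only value above 0 was that with median centring. The median over all features was 0.32 in that setting, and relative to that median Trem2 was at 0.57, Treml4 at -0.62 and Tyrobp at -0.08.

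**Figure D4:**
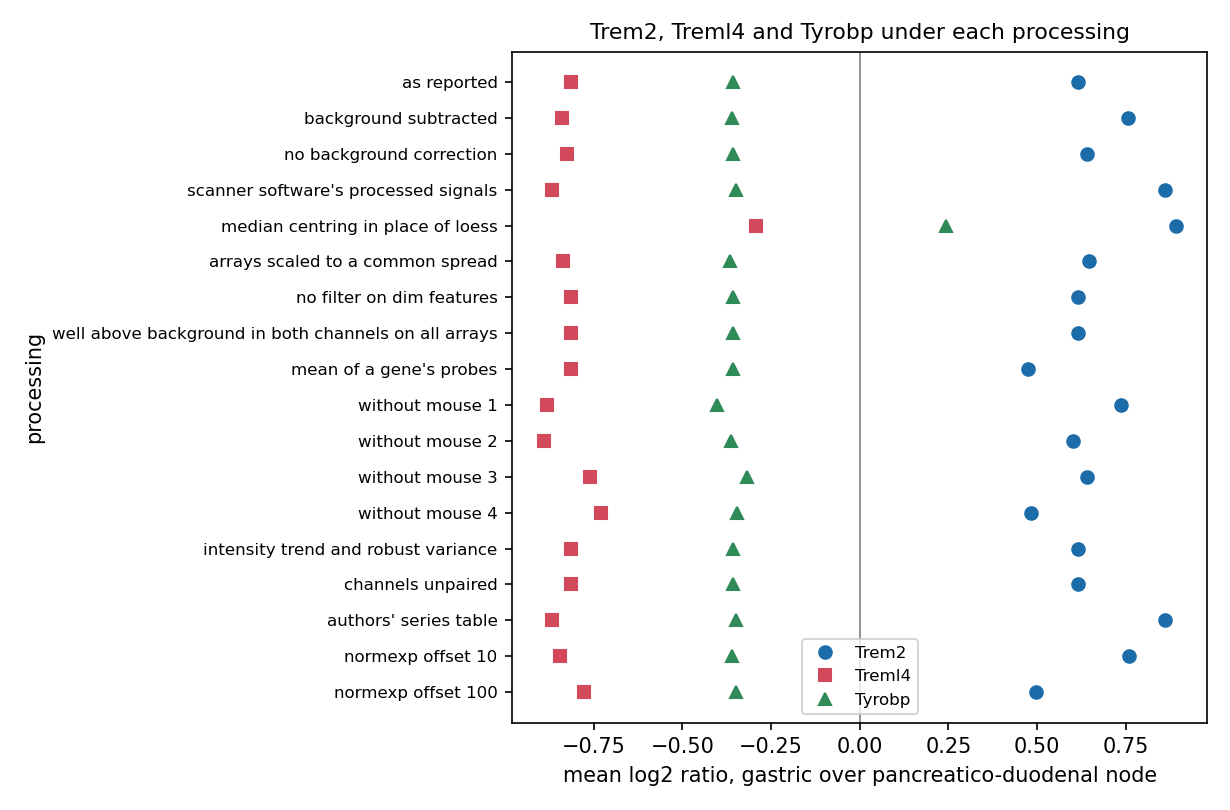
Mean log2 ratio, gastric over pancreatico-duodenal node, of Trem2, Treml4 and Tyrobp as reported and under each of 17 other processings, 1 point per gene and processing. Trem2 lies between 0.48 and 0.89 and Treml4 between -0.89 and -0.29, and Tyrobp lies to the right of 0 only with median centring (0.24).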

How the data were processed

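Per the labels' protocols, RNA of both nodes was amplified and labelled, and each mouse had its own Agilent array. The deposited files hold mean and background intensity per spot and channel and a log10 ratio, per the file headers from Agilent Feature Extraction 10.2.1.3. The authors' deposited series table holds log2 ratios of Cy5 over Cy3, as its agreement with the processed signals showed (largest difference 5.11e-05); its column medians were -0.15, -0.06, -0.03 and -0.03 in mice 1 to 4, and how it was centred is not known.

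Background was removed by normexp (offset 50) and the channels were balanced by loess, using limma 3.58.1, R 4.3.3 and data.table (version 1.17.8), with control and outlier spots at weight 0, and spots of a probe were averaged (41174 probes). A probe was kept where either channel was well above background on 3 or more of the 4 arrays (27603 probes). Transcripts were named through RefSeq (GRCm38.p6), which matched 24844 probes; the array annotation is mm9, so probe coordinates are not used. The brightest probe stood for a gene, giving 21320 features, whose mean log2 ratio over 4 mice was tested against 0 (lmFit, eBayes, Benjamini-Hochberg). Channel levels were taken after Aquantile. Both nodes of a mouse share an array, so the test is paired by mouse. The arrays lay on 1 slide with 1 scan, and their log2 ratios correlated at 0.16 to 0.64 between mice, over features.

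The genes of the family and the lists were chosen with earlier results of these data known. Named genes are all family members, up to 4 called genes of each list with the largest ratios (the 2 brightest where none was called), genes lying between cluster members, and the 5 nearest in log2 ratio; 1 called list gene is not reported here. Alternatives covered background, normalization, filter, probe choice, each mouse left out, variance model, pairing, threshold and series table; normexp offsets of 10 and 100 were added after seeing the data.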

Additional observations from a re-analysis of the deposited data

Results flagged for a closer look

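Of 80 sets of 4 mice, 7 held 1 mouse far from the others, with a gap beyond Dixon's critical share of the range, and chance alone gives about 1 in 20 such sets. No TREM or Tyrobp ratio or level was among them. Mouse 3 stood apart for Ms4a6d at -0.96 (others -0.46 to -0.38), for the complement gene C1qa at -1.26 (others -0.86 to -0.78) and for the median of the ligands, sheddases and partners at -0.33 (others 0.02 to 0.08). Mouse 1 stood apart for Cd163 at -0.82 (others -1.46 to -1.37), for the B cell gene Ms4a1 at 0.90 (others 0.11 to 0.21) and for the natural killer median at -0.10 (others 0.16 to 0.18). Mouse 4 stood apart for the platelet and megakaryocyte median at -0.37 (others -0.07 to -0.02). All values are log2 ratios of the gastric over the pancreatico-duodenal node.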

How the results depend on the processing

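Under median centring, used instead of loess, the median over all features was 0.32, Treml4 moved to -0.29 and Tyrobp reversed to 0.24; the cause was not tested. Also reversed there were Acp5 (0.29), Batf3 (0.26), Bst2 (0.36), Cd14 (0.093), Csf1r (0.19), Dok1 (0.25), Fcer1g (0.39), Ltbr (0.15), Madcam1 (0.28) and Naaa (0.046). Features higher and lower numbered 12821 and 2066 there (659 and 949 with loess), and pathway genes 50 and 2 (0 and 12 with loess). Scaling the log2 ratios of the arrays with limma's scale method gave 1077 features and 2 pathway genes higher. An adjusted p under 0.10 gave 2151 and 2055 features and 4 and 20 pathway genes higher and lower. Lower features numbered 569 with the scanner software's signals and 584 with the authors' series table, with 3 lower pathway genes in each. Without the pairing by mouse (no replicate block) 344 and 568 features were higher and lower, and 4 pathway genes lower. Leaving out 1 mouse gave 0 to 844 features higher, 0 to 1323 lower, 0 to 4 pathway genes higher and 0 to 18 lower, the high ends all without mouse 1; the fewer arrays are part of these alternatives. Across named list genes, 461 of 629 values stayed on the same side of 0 and of the threshold, 6 uncalled values changed sign, 146 lost the call, 6 gained it and 10 reversed. The 4 arrays and signals close to background for Trem1, Trem3 and the second Trem2 probe limit the precision.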
